A study of Homo sapiens with 6 samples.

Results

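The genes described are 39 members of the NRF2 antioxidant response and of the pathways that feed it: the regulators NRF2 (NFE2L2) and KEAP1, enzymes of glutathione and thioredoxin metabolism, the pentose phosphate pathway, heme and iron handling, and a set of detoxification genes. They were taken from a fixed list of gene symbols, and all 39 were found among the 50868 genes listed. No rule on measured values picked them, but the list was chosen with earlier results of these data known. NRF2 is a transcription factor that KEAP1, the adaptor of a cullin 3 ubiquitin ligase, marks for degradation in unstressed cells. Oxidants and electrophiles disable KEAP1, and NRF2 then binds antioxidant response elements with a small MAF partner and raises transcription of genes that make glutathione, reduce thioredoxin and supply NADPH. NRF2 is controlled largely through protein stability, which RNA sequencing does not measure.

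RNA was sequenced in 3 libraries of cells labelled A549 that received an siRNA against SF3B4 and in 3 of cells that received a scramble control siRNA, all grown in RPMI medium with serum. A549 is a human lung adenocarcinoma line, and SF3B4 is a subunit of the splicing factor SF3b, which recognises the intron branch point. No source used here gives the sequence of the siRNA, its dose or the time of harvest. The titles call the libraries of a group biological replicates without saying what separated them, so a p-value speaks only to the spread among these 6. Under the genotype label, SF3B4 siRNA library 2 is given as SF3B5 knockdown and library 3 as SF3B6 knockdown, while the title and treatment of both name SF3B4. Values are FPKM (fragments per kilobase of transcript, scaled to library size). SF3B4 had 22, 17.7 and 22.3 FPKM in the SF3B4 siRNA libraries, against 88.6, 92 and 93.8 FPKM in the control libraries (log2 fold change -2.15 ± 0.10, SE, limma adjusted p = 8.8e-05, exact two-sided permutation p = 0.1, the smallest that 3 against 3 allows). SF3B5, another SF3b subunit, was also lower in all 3 SF3B4 siRNA libraries, with 201, 189 and 207 FPKM, against 393, 432 and 453 FPKM in the controls (log2 fold change -1.10 ± 0.07, adjusted p = 9.6e-05), while SF3B6 did not pass (adjusted p = 0.18). The files implied a depth of 17512215 to 18538430 fragments per library.

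The labelled cell line was checked first, because A549 is known for an inactivating KEAP1 mutation and for high NRF2 output. Of 11 genes chosen as typical of A549, 7 stayed below 1 FPKM in all 6 libraries: the aldo-keto reductase genes AKR1C1 and AKR1C2, the aldehyde dehydrogenase genes ALDH1A1 and ALDH3A1, the glutathione peroxidase gene GPX2, the carboxylesterase gene CES1 and the urea cycle gene CPS1. ALDH1A1 reached at most 0.0594 FPKM and AKR1C1 at most 0.0749 FPKM. AKR1B10, which encodes another reductase typical of KEAP1-mutant lung cancer, had at most 2.25 FPKM and AKR1C3 at most 1.15 FPKM. VIM, also on the list, had at most 4.06 FPKM. NQO1 was the 1 marker of the list at a high level, with 147 to 168 FPKM in the SF3B4 siRNA libraries and 168 to 180 FPKM in the control libraries, and it makes up most of the list's summed level of 152.1 to 173.1 FPKM after SF3B4 siRNA and 173.7 to 184.6 FPKM in the controls. The data therefore go against the label for most of these markers. The column headers of the deposited tables name another lung cancer line, H1650, so the libraries are called libraries labelled A549.

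**Figure D1:**
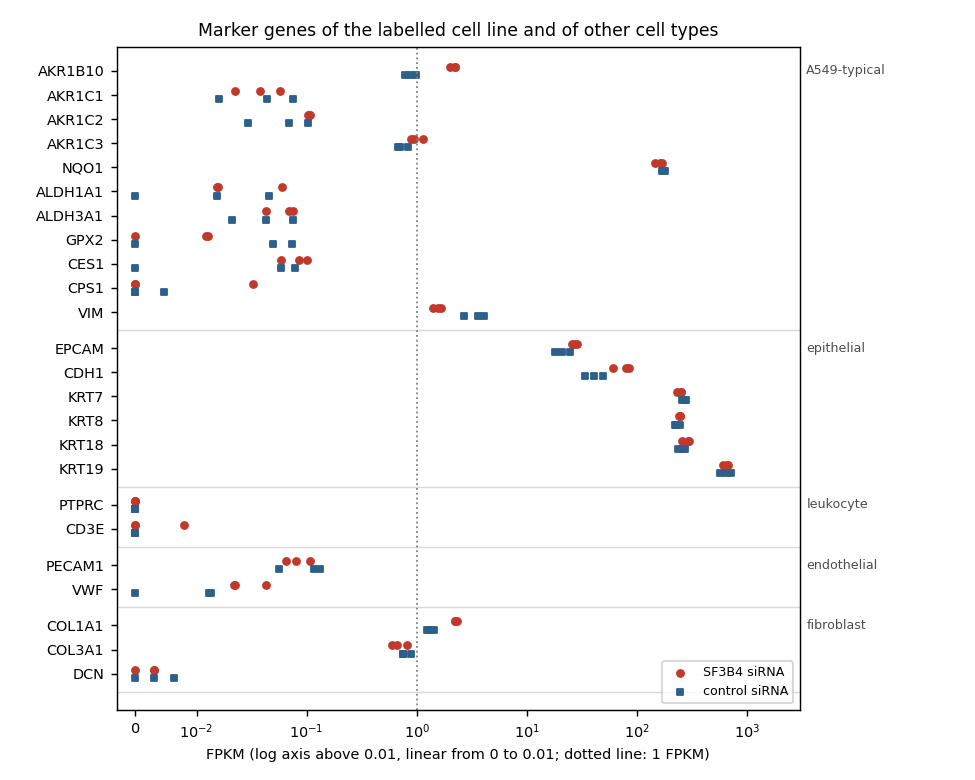
FPKM of marker genes in each library, on an axis that is logarithmic above 0.01 FPKM, with SF3B4 siRNA libraries as circles and control libraries as squares. All 6 epithelial markers lie well above 1 FPKM, while 7 of the 11 A549-typical genes lie below 1 FPKM in every library.

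The libraries were epithelial in type. The 6 epithelial markers (EPCAM, CDH1, KRT7, KRT8, KRT18 and KRT19) summed to 1495 to 1558 FPKM after SF3B4 siRNA and to 1352 to 1551 FPKM in the controls, a sum carried by the keratins. CDH1, which encodes E-cadherin, had 79.3, 61.3 and 84.3 FPKM after SF3B4 siRNA, against 41, 33.6 and 49.1 FPKM in the controls. EPCAM had 25.8, 28.8 and 26.9 FPKM after SF3B4 siRNA, against 24.9, 18 and 20.9 FPKM in the controls. VIM had 1.41, 1.65 and 1.55 FPKM after SF3B4 siRNA, against 2.69, 4.06 and 3.64 FPKM in the controls. The groups did not overlap for these 3 genes, CDH1 and EPCAM being higher and VIM lower in the SF3B4 siRNA libraries. KRT7 also separated, but was lower after SF3B4 siRNA, with 233, 253 and 254 FPKM, against 257, 271 and 281 FPKM in the controls. For KRT8, KRT18 and KRT19 the groups overlapped. Of the 9685 genes tested below, 49.5% had groups that did not overlap. The leukocyte marker PTPRC was at 0 in all 6 libraries, CD3E was at 0 in all but SF3B4 siRNA library 3, with 0.00788 FPKM, and the endothelial markers PECAM1 and VWF reached at most 0.133 FPKM. Fibroblast markers summed to 2.828 to 3.141 FPKM after SF3B4 siRNA and to 2.066 to 2.199 FPKM in the controls, but the markers went different ways. COL1A1 had 2.23, 2.24 and 2.33 FPKM after SF3B4 siRNA, against 1.24, 1.44 and 1.31 FPKM in the controls. COL3A1 had 0.598, 0.661 and 0.808 FPKM after SF3B4 siRNA, against 0.897, 0.753 and 0.753 FPKM in the controls, and DCN had at most 0.00635 FPKM. The part of these marker differences in the results below was not tested. In such bulk libraries, fewer cells of a type and less RNA per cell cannot be told apart.

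Antioxidant response elements are the DNA sites that NRF2 and its MAF partner bind, and their core reads TGACNNNGC. RefSeq promoter windows (250 bases before to 50 after the transcript start, GRCh38.p14) were at hand for 29 of the 39 genes, and 7 of these 29 (24.1%) held the core on either strand, against 15.9% of 7083 windows of tested genes and 13.3% of all 35116 windows. The 29 include members too low to be tested, GSTP1 and GPX2 among those with the core. No window was at hand for AKR1B10, GSS, GSR, SLC7A11, HMOX1, ABCC3, TRIM16L, FTH1, PRDX1 and PRDX6. A match describes the sequence and does not show that NRF2 binds there. The matches are shown because they cover both the member with the largest rise, PIR, and members that were almost silent, GSTP1 and GPX2, each written on the strand that reads the core forward, with the core in capitals.
PIR: agcctcaccgTGACTCAGCgcttcgcggc
GSTP1: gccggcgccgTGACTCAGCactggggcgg
GPX2: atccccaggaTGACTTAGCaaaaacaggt
GCLM: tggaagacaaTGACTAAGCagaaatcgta
TXNRD1: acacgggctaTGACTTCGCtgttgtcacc
PGD: agcacctagaTGACATTGCcccggcgagg
RPE: ggcggacggcTGACAGCGCcccaccccag
The window of PIR lies at chrX:15493289-15493317 (plus strand) and that of GSTP1 at chr11:67583736-67583764 (plus strand), and both carry the same 9 bases, TGACTCAGC. The others lie at chr14:64942849-64942877 (plus, GPX2), chr1:93909446-93909474 (plus, GCLM), chr12:104215670-104215698 (plus, TXNRD1), chr1:10398853-10398881 (minus, PGD) and chr2:210002477-210002505 (plus, RPE). TXNRD1 held a further core, TGACGGAGC, at chr12:104215761-104215789 on the minus strand.

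Across all 9685 tested genes (at least 1 FPKM in at least 3 of 6 libraries), 34.1% passed the limma threshold of adjusted p under 0.05, with 16.0% higher in the SF3B4 siRNA libraries and 18.1% lower. Of the 39 members, 31 reached the tested range, of which 11 were higher (35.5%) and 4 lower (12.9%). The median log2 fold change of the 31 was 0.05, beside 0 for all tested genes. The groups did not overlap in 21 of the 31 (67.7%), beside 49.5% of all tested genes. Since the list was chosen with earlier results of these data known, these shares are a description. AKR1B10 entered the test only through its SF3B4 siRNA libraries, and without it the count was 10 higher and 4 lower of 30. The members higher were PIR, AKR1B10, HMOX1, TXNRD1, TKT, TALDO1, PGD, PRDX1, GSS, FTL and PRDX5, and those lower were PRDX2, ABCC3, UGDH and FTH1. Levels spanned from 0 to 1160 FPKM, and each member is given by its role.

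**Figure D2:**
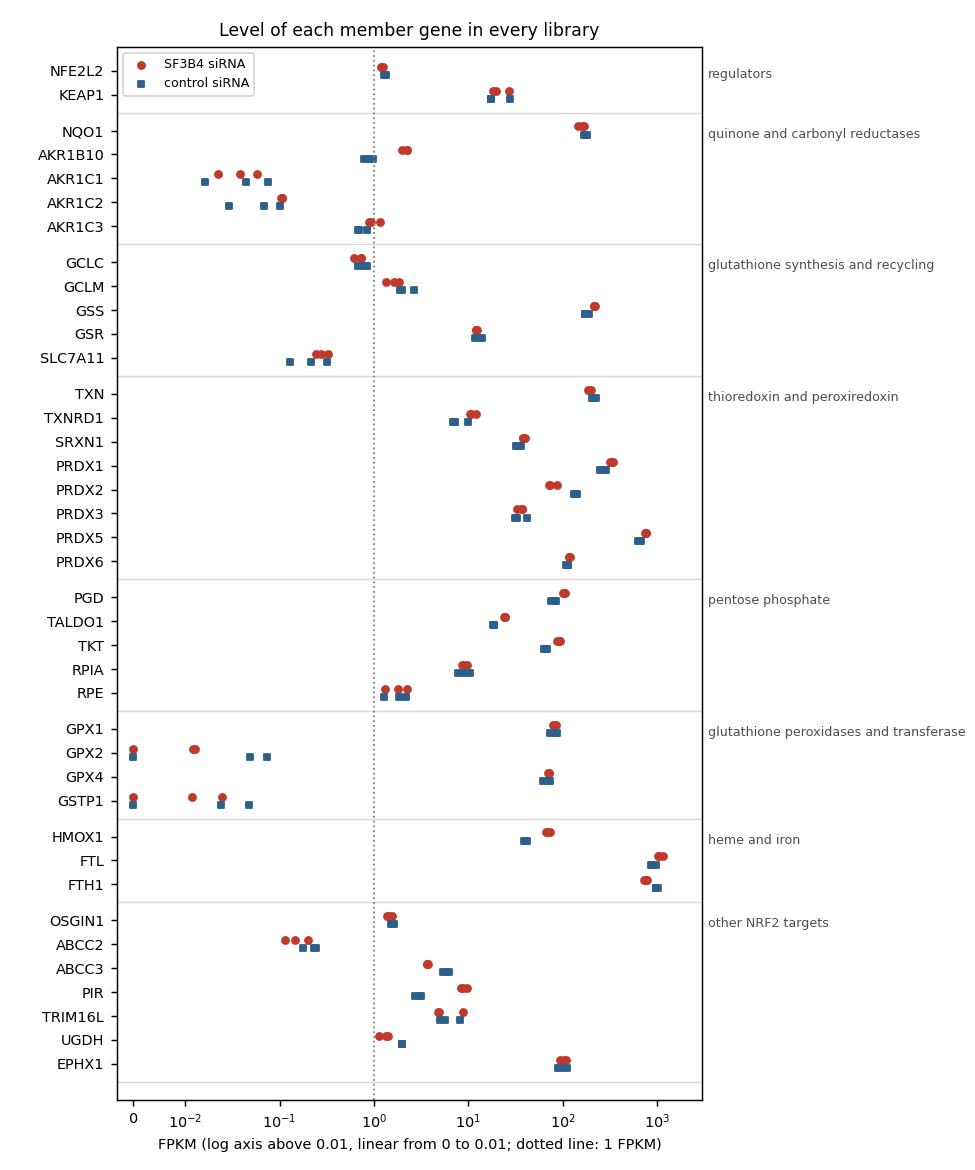
FPKM of the 39 member genes in each library, grouped by role, on an axis that is logarithmic above 0.01 FPKM and linear from 0 to 0.01, with SF3B4 siRNA libraries as circles above control libraries as squares. The 8 members not tested lie left of the dotted line at 1 FPKM, AKR1C3 reaching past it in 1 library, and ferritin and PRDX5 stand at the right end.

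Neither of the 2 regulators passed the test. NFE2L2, which encodes NRF2 (chromosome 2, 177227595 to 177392697, minus strand, GRCh38), had 1.19, 1.21 and 1.24 FPKM in the SF3B4 siRNA libraries, against 1.31, 1.36 and 1.27 FPKM in the control libraries. The groups did not overlap, but the difference did not pass the test (log2 fold change -0.10 ± 0.11, SE, limma adjusted p = 0.52). KEAP1, its inhibitor (chromosome 19, 10486120 to 10503741, minus strand), had 27.1, 18.1 and 19.8 FPKM after SF3B4 siRNA, against 17.4, 17.4 and 28 FPKM in the controls. Each group held 1 high library for KEAP1, SF3B4 siRNA library 1 and control library 3, so the groups overlapped (log2 fold change 0.06 ± 0.23, adjusted p = 0.86). The sign of the KEAP1 difference turned to -0.11 without SF3B4 siRNA library 1 and to -0.05 without control library 1 or 2.

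Among the quinone and carbonyl reductases, NQO1 was abundant and the aldo-keto reductases were scarce. NQO1, which reduces quinones by 2 electrons and is a classic NRF2 target (chromosome 16, 69706996 to 69726951, minus strand), had 162, 168 and 147 FPKM after SF3B4 siRNA, against 180, 175 and 168 FPKM in the controls. All SF3B4 siRNA libraries lay just below the controls, and the difference did not pass the test (log2 fold change -0.14 ± 0.07, adjusted p = 0.16). AKR1B10, a reductase of aldehydes and retinal (chromosome 7, 134527592 to 134541408, plus strand), rose to 2.24, 1.99 and 2.25 FPKM after SF3B4 siRNA, against 0.884, 0.791 and 0.979 FPKM in the controls. Its log2 fold change was 1.2 ± 0.13 (SE, adjusted p = 0.00058), at a level far below that of NQO1. AKR1C3, which reduces steroids and prostaglandins, had 0.94, 1.15 and 0.888 FPKM after SF3B4 siRNA, against 0.702, 0.678 and 0.839 FPKM in the controls, and was not tested at this level. For AKR1C1 and AKR1C2, near neighbours on chromosome 10, the values corresponded to 4, 7 and 11 fragments after SF3B4 siRNA and 14, 8 and 3 in the controls for AKR1C1, and to 18, 18 and 19 fragments after SF3B4 siRNA and 18, 5 and 12 in the controls for AKR1C2. These paralogs are close in sequence, so fragments may be shared between them, and neither was tested. In FPKM the groups overlapped for AKR1C1, while for AKR1C2 the 3 SF3B4 siRNA libraries (0.107, 0.103 and 0.106 FPKM) lay above the controls (0.102, 0.0292 and 0.0685 FPKM), the nearest pair of libraries being equal in fragments.

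Glutathione is made in 2 steps, by glutamate-cysteine ligase (catalytic subunit GCLC, modifier subunit GCLM) and then by glutathione synthetase (GSS), from cystine that the transporter SLC7A11 brings in. The step enzymes stood at very different levels. GSS (chromosome 20, 34928433 to 34956027, minus strand) rose to 215, 218 and 215 FPKM after SF3B4 siRNA, against 171, 189 and 174 FPKM in the controls (log2 fold change 0.28 ± 0.06, adjusted p = 0.0081). GCLM (chromosome 1, 93885205 to 93909456, minus strand) had 1.36, 1.63 and 1.84 FPKM after SF3B4 siRNA, against 2.64, 1.88 and 1.98 FPKM in the controls. All SF3B4 siRNA libraries lay below the controls for GCLM, but the difference did not pass the test (log2 fold change -0.40 ± 0.17, adjusted p = 0.10). GCLC stayed below 1 FPKM in every library (0.621 to 0.723 FPKM after SF3B4 siRNA and 0.672 to 0.847 FPKM in the controls), as did SLC7A11 (0.241 to 0.325 FPKM after SF3B4 siRNA and 0.128 to 0.317 FPKM in the controls). Both are well-known NRF2 targets, and neither was tested at these levels. Glutathione reductase, GSR, which returns oxidised glutathione to its reduced form, had 12.2 ± 0.255 FPKM after SF3B4 siRNA and 13 ± 1.09 FPKM in the controls (SD, n = 3 each), with overlapping groups and adjusted p = 0.45 in limma.

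Of the enzymes that spend glutathione, neither of the 2 that could be tested passed. GPX4, which removes lipid peroxides, averaged 71.6 ± 0.877 FPKM after SF3B4 siRNA and 69.2 ± 6.82 FPKM in the controls (SD, n = 3 each, limma adjusted p = 0.64). GPX1, the cytosolic peroxidase, averaged 81.9 ± 2.52 FPKM after SF3B4 siRNA and 82 ± 7.77 FPKM in the controls (limma adjusted p = 0.99). GPX1 is uncertain, since its processed pseudogene GPX1P1 was listed at 105 ± 3.46 FPKM after SF3B4 siRNA and 104 ± 12.7 FPKM in the controls, more than GPX1 itself. GSTP1, the glutathione transferase that is abundant in most epithelial cancer lines (chromosome 11, 67583595 to 67586656, plus strand), was almost absent. Its values corresponded to 2, 1 and 0 fragments in SF3B4 siRNA libraries 1 to 3, against 0, 2 and 4 fragments in control libraries 1 to 3, in libraries of at least 17512215 fragments. GPX2, the peroxidase of gut and squamous epithelium, had 1, 0 and 1 fragments after SF3B4 siRNA, against 4, 0 and 6 fragments in the controls. Both genes hold an antioxidant response element core in the promoter window, and no difference between groups was detectable for either at this depth.

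Peroxiredoxins remove peroxides, most of them with electrons from thioredoxin, and their genes went different ways. PRDX1, a cytosolic peroxiredoxin (chromosome 1, 45511036 to 45523047, minus strand), rose to 318, 337 and 346 FPKM after SF3B4 siRNA, against 272, 251 and 288 FPKM in the controls (log2 fold change 0.31 ± 0.07, adjusted p = 0.011). PRDX2, the other cytosolic form (chromosome 19, 12796820 to 12801859, minus strand), fell to 73.6, 87 and 71.6 FPKM after SF3B4 siRNA, against 132, 138 and 143 FPKM in the controls (log2 fold change -0.83 ± 0.08, adjusted p = 0.00048). In the same libraries PRDX1 thus stood 4.32, 3.87 and 4.83 times above PRDX2 after SF3B4 siRNA, against 2.06, 1.83 and 2.01 times in the controls. The ratio was chosen after the values were seen, and its separation follows from that of the 2 genes. MMACHC, on the opposite strand, covers 24.9% of the PRDX1 exons, and AC018761.2, also opposite, covers 14.1% of the PRDX2 exons, so both values may hold reads of the other gene.

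PRDX5, the peroxiredoxin of mitochondria and peroxisomes, rose to 755, 761 and 769 FPKM after SF3B4 siRNA, against 624, 677 and 662 FPKM in the controls (log2 fold change 0.22 ± 0.05, adjusted p = 0.014). This call was lost without SF3B4 siRNA library 3 (limma adjusted p = 0.052) and without the intensity trend and robust option (0.059, range 0.0059 to 1.0 over the alternatives). PRDX3, a mitochondrial form, averaged 35.5 ± 2.17 FPKM after SF3B4 siRNA and 35.2 ± 5.48 FPKM in the controls (SD, n = 3 each, limma adjusted p = 0.91). PRDX6, which also acts on phospholipid peroxides, averaged 118 ± 0.976 FPKM after SF3B4 siRNA and 113 ± 2.82 FPKM in the controls. For PRDX6 the groups did not overlap, but the difference was small against the spread allowed by the fit (limma adjusted p = 0.31). Of the 5 peroxiredoxins listed as members, 2 thus rose, 1 fell and 2 did not pass, where 34.1% of all tested genes passed. PRDX4 is not a member and is given below with other genes of the same pathways.

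Thioredoxin reduces most of the peroxiredoxins, and thioredoxin reductase recharges it with NADPH. TXNRD1, the cytosolic reductase (chromosome 12, 104215779 to 104350305, plus strand), had 10.5, 10.8 and 12 FPKM after SF3B4 siRNA, against 9.85, 7.18 and 6.85 FPKM in the controls. The groups did not overlap and the gene passed the test (log2 fold change 0.49 ± 0.14, adjusted p = 0.033), but control library 1 lay close to the SF3B4 siRNA libraries. Adjusted p was 0.058, 0.069 and 0.095 without SF3B4 siRNA library 1, 2 or 3, 0.093 and 0.098 without control library 2 or 3, and 0.054 with the replicate number as a block, with a range of 0.0045 to 0.32 over all alternatives. TXN, thioredoxin itself, had 195, 188 and 200 FPKM after SF3B4 siRNA, against 228, 211 and 204 FPKM in the controls, every SF3B4 siRNA library lower, without passing (log2 fold change -0.14 ± 0.06, adjusted p = 0.11). SRXN1, sulfiredoxin, which repairs overoxidised peroxiredoxins, had 39.8, 37.8 and 38.2 FPKM after SF3B4 siRNA, against 36.2, 31.9 and 34.2 FPKM in the controls, every SF3B4 siRNA library higher, also without passing (log2 fold change 0.18 ± 0.07, adjusted p = 0.078). SRXN1 passed without control library 1 (adjusted p = 0.036) and with each library centred on its median (adjusted p = 0.037), over a range of 0.036 to 1.0. A further gene, AL121758.1, covers 85% of the SRXN1 exons on the same strand, so its value is uncertain.

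The pentose phosphate pathway makes NADPH in its oxidative branch and exchanges sugars with glycolysis in its other branch. The NADPH-producing enzyme and both enzymes of sugar exchange rose, and the 2 enzymes between them did not pass the test. PGD, phosphogluconate dehydrogenase of the oxidative branch (chromosome 1, 10398592 to 10420144, plus strand), rose to 106, 101 and 104 FPKM after SF3B4 siRNA, against 82.5, 76 and 84.4 FPKM in the controls (log2 fold change 0.36 ± 0.06, adjusted p = 0.0044). TALDO1, transaldolase (chromosome 11, 747329 to 765024, plus strand), rose to 24.8, 23.9 and 24.8 FPKM after SF3B4 siRNA, against 18.3, 18.8 and 18.8 FPKM in the controls (log2 fold change 0.39 ± 0.06, adjusted p = 0.0027). TKT, transketolase (chromosome 3, 53224707 to 53256052, minus strand), rose to 93.2, 90.6 and 88 FPKM after SF3B4 siRNA, against 64, 68.3 and 67.3 FPKM in the controls (log2 fold change 0.45 ± 0.06, adjusted p = 0.0013). In all 3 the groups did not overlap, and the 3 fold changes (1.28, 1.31 and 1.36) were alike in size. All 3 calls were lost when the test asked for a change past 1.2-fold (limma adjusted p = 0.35, 0.18 and 0.058). RPIA, the isomerase of ribose 5-phosphate, averaged 9.12 ± 0.631 FPKM after SF3B4 siRNA and 9.09 ± 1.34 FPKM in the controls (SD, n = 3 each, limma adjusted p = 0.95). RPE, the matching epimerase, averaged 1.8 ± 0.471 FPKM after SF3B4 siRNA and 1.77 ± 0.452 FPKM in the controls (limma adjusted p = 0.96).

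**Figure D3:**
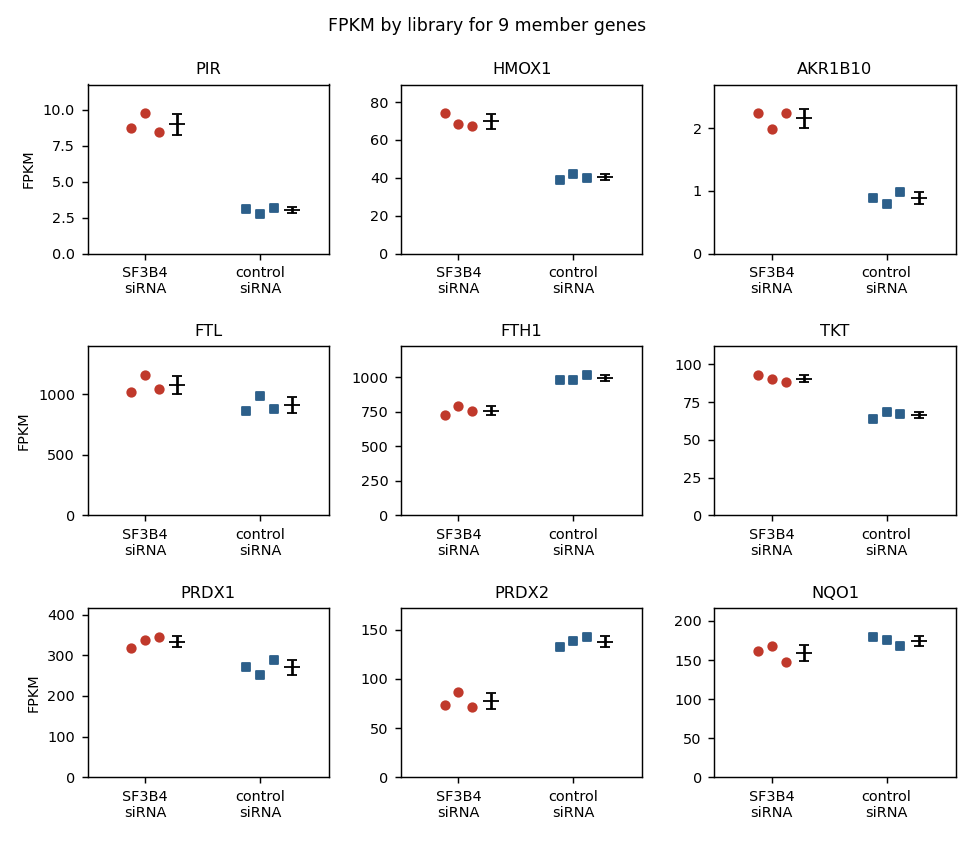
FPKM of 9 member genes by library on linear axes from 0, with SF3B4 siRNA libraries left of control libraries and the mean and SD of each group as a black bar. The groups do not overlap in any panel, with PIR, HMOX1, AKR1B10, FTL, TKT and PRDX1 higher after SF3B4 siRNA and FTH1, PRDX2 and NQO1 lower, though NQO1 did not pass the test. The 9 are a selection and do not stand for all members. Groups did not overlap in 21 of the 31 tested members, beside 49.5% of all tested genes.

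Heme oxygenase and ferritin deal with heme and the iron released from it. HMOX1, which opens the heme ring (chromosome 22, 35380361 to 35394214, plus strand), rose to 74.4, 68.3 and 67.1 FPKM after SF3B4 siRNA, against 38.7, 42.2 and 40.1 FPKM in the controls. The log2 fold change was 0.79 ± 0.07 (adjusted p = 0.00026), and the call held in all 17 alternatives. The 2 ferritin chains went opposite ways. FTL, the light chain (chromosome 19, 48965301 to 48966878, plus strand), had 1020, 1160 and 1040 FPKM after SF3B4 siRNA, against 858, 983 and 880 FPKM in the controls (log2 fold change 0.25 ± 0.07, adjusted p = 0.038). FTH1, the heavy chain that carries the ferroxidase site (chromosome 11, 61959718 to 61967660, minus strand), fell to 728, 790 and 760 FPKM after SF3B4 siRNA, against 981, 982 and 1020 FPKM in the controls (log2 fold change -0.39 ± 0.05, adjusted p = 0.0015). The ratio of light to heavy chain FPKM was 1.41, 1.47 and 1.37 after SF3B4 siRNA, against 0.875, 1 and 0.865 in the controls, a ratio that was also chosen after the values were seen and separates because both genes do.

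The 2 ferritin results differ in how firm they are. Both calls were lost when the test asked for a change past 1.2-fold, with limma adjusted p = 0.13 for FTH1. The FTL call was lost without SF3B4 siRNA library 2 or 3 (adjusted p = 0.11 and 0.064), without control library 1 or 3 (0.10 and 0.11), with quantile normalization (0.16) and without the intensity trend and robust option (0.088), over a range of 0.018 to 1.0. For FTH1, 25 pseudogenes named after it were listed, together at 2830 ± 56.5 FPKM after SF3B4 siRNA and 3680 ± 219 FPKM in the controls (SD, n = 3 each), more than FTH1 itself. FTH1P2 alone had 1550 ± 44.3 FPKM after SF3B4 siRNA and 2050 ± 166 FPKM in the controls. FTH1 and its pseudogenes were thus both lower after SF3B4 siRNA, and how fragments were divided among them is not known. The 16 pseudogenes of FTL summed to 25.3 ± 3.76 FPKM after SF3B4 siRNA and 20.4 ± 2.6 FPKM in the controls.

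Of the other NRF2 targets, 1 rose and 2 fell. PIR, pirin, an iron-binding nuclear protein (chromosome X, 15384799 to 15493564, minus strand), showed the largest change of any tested member, with 8.76, 9.81 and 8.43 FPKM after SF3B4 siRNA, against 3.08, 2.76 and 3.19 FPKM in the controls. The log2 fold change was 1.55 ± 0.10 (adjusted p = 9.6e-05). PIR and AKR1B10 were the 2 of 31 tested members (6.45%) past both a 2-fold change and the threshold, and without AKR1B10, tested only through its SF3B4 siRNA libraries, PIR was 1 of 30 (3.33%), beside 4.05% of all tested genes. ABCC3, which exports glutathione and glucuronide conjugates (chromosome 17, 50634777 to 50692252, plus strand), fell to 3.75, 3.64 and 3.62 FPKM after SF3B4 siRNA, against 5.35, 5.79 and 6.19 FPKM in the controls (log2 fold change -0.64 ± 0.09, adjusted p = 0.0018). UGDH, which makes UDP-glucuronate for such conjugates (chromosome 4, 39498755 to 39528311, minus strand), fell to 1.13, 1.34 and 1.42 FPKM after SF3B4 siRNA, against 1.99, 2 and 1.97 FPKM in the controls (log2 fold change -0.58 ± 0.12, adjusted p = 0.0089). The UGDH call was lost with no filter on low values (limma adjusted p = 0.057) and when the test asked for a change past 1.2-fold (0.1), over a range of 0.006 to 0.1.

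The remaining targets showed no called change. EPHX1, microsomal epoxide hydrolase, averaged 102 ± 7.86 FPKM after SF3B4 siRNA and 98.2 ± 11.1 FPKM in the controls (SD, n = 3 each, limma adjusted p = 0.68). OSGIN1, an oxidative stress-induced growth inhibitor, averaged 1.47 ± 0.0894 FPKM after SF3B4 siRNA and 1.57 ± 0.0554 FPKM in the controls (limma adjusted p = 0.57). TRIM16L had 4.85, 4.78 and 8.76 FPKM after SF3B4 siRNA, against 8.17, 5 and 5.62 FPKM in the controls, with 1 high library in each group (limma adjusted p = 0.90). ABCC2, another conjugate exporter, stayed at 0.115 to 0.201 FPKM after SF3B4 siRNA and 0.176 to 0.245 FPKM in the controls and was not tested.

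**Figure D4:**
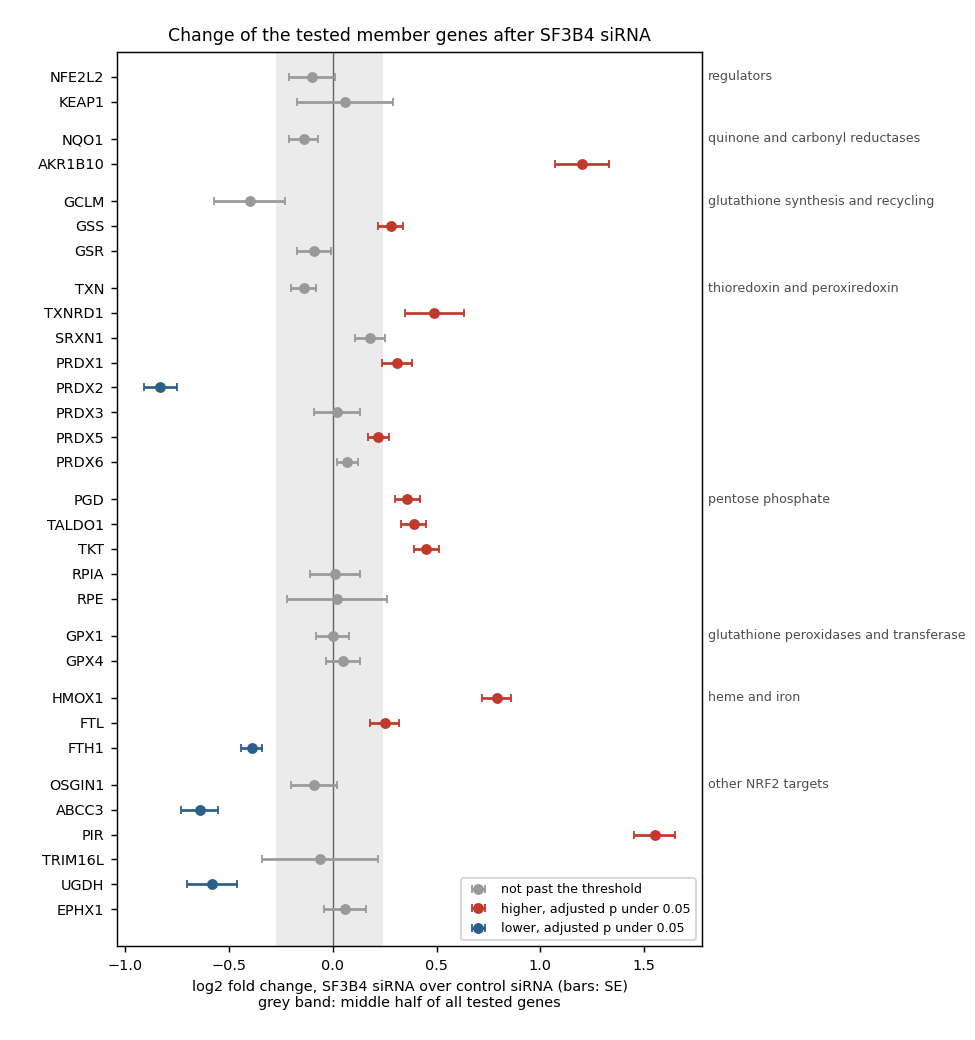
Log2 fold change of the 31 tested members after SF3B4 siRNA over control siRNA, with the SE of the limma fit as bars and the interquartile range of all tested genes as a grey band. PIR, AKR1B10 and HMOX1 stand furthest to the right and PRDX2 furthest to the left, while most members lie within or near the band from -0.27 to 0.24.

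A further list of other genes of the same pathways gives the setting, also chosen with earlier results of these data known. Of its 65 genes found, 50 were tested, 17 rose and 7 fell (34.0% and 14.0%, beside 16.0% and 18.1% of all tested genes). The median log2 fold change of the 50 was 0.22. GSTZ1 reached the tested range only through its SF3B4 siRNA libraries and TXNRD3, which was lower, only through its control libraries, and without both the count was 16 higher and 6 lower of 48. IDH1, a cytosolic NADPH producer, averaged 23.8 ± 1.27 FPKM after SF3B4 siRNA and 14.4 ± 0.39 FPKM in the controls (SD, n = 3 each, log2 fold change 0.72). ME1, malic enzyme, averaged 3 ± 0.634 FPKM after SF3B4 siRNA and 1.66 ± 0.513 FPKM in the controls, a call lost without SF3B4 siRNA library 2 or 3 (adjusted p = 0.078 and 0.056) or control library 2 or 3 (0.078 and 0.076, range 0.01 to 0.27). NQO2, the quinone reductase related to NQO1, averaged 3.79 ± 0.116 FPKM after SF3B4 siRNA and 1.9 ± 0.135 FPKM in the controls (log2 fold change 0.96); NQO1 itself was not higher in any SF3B4 siRNA library than in the controls. RBKS, ribokinase, averaged 2.6 ± 0.0817 FPKM after SF3B4 siRNA and 1.51 ± 0.142 FPKM in the controls (log2 fold change 0.75).

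BLVRB, biliverdin reductase B, averaged 231 ± 8.82 FPKM after SF3B4 siRNA and 127 ± 16.6 FPKM in the controls (log2 fold change 0.87, limma adjusted p = 0.00061). MSRB1, a selenoprotein that repairs oxidised methionine, averaged 34.7 ± 1.1 FPKM after SF3B4 siRNA and 15.8 ± 0.687 FPKM in the controls, with a log2 fold change of 1.13, the largest rise among the tested genes of the list. PRDX4, the peroxiredoxin of the endoplasmic reticulum, had a log2 fold change of 0.81 (55.5 ± 8.58 FPKM after SF3B4 siRNA and 31.3 ± 1.56 FPKM in the controls). SESN2, a stress-induced sestrin, rose with a log2 fold change of 0.62, GGT1, which breaks down extracellular glutathione, with 0.65, and GSTZ1 with 0.63, the last tested only through its SF3B4 siRNA libraries. SNRPD3 covers 6.9% of the GGT1 exons on the same strand, so the GGT1 value may hold its reads. All of these SD values are over 3 libraries per group.

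Of the 7 genes of that list that fell, 3 passed the size required to be named (0.58 on the log2 scale). SLC3A2, the heavy chain that pairs with the cystine transporter SLC7A11, had 20.7, 18.6 and 20.7 FPKM after SF3B4 siRNA, against 28.9, 31.2 and 32 FPKM in the controls (log2 fold change -0.62 ± 0.08, limma adjusted p = 0.0011). PRPS2, which turns ribose 5-phosphate into the precursor of nucleotides, averaged 1.09 ± 0.353 FPKM after SF3B4 siRNA and 3.07 ± 0.751 FPKM in the controls (log2 fold change -1.43). CBR3, a carbonyl reductase, averaged 5.5 ± 1.36 FPKM after SF3B4 siRNA and 9.06 ± 0.941 FPKM in the controls (log2 fold change -0.73), a call lost without control library 2 or 3 (adjusted p = 0.06 and 0.052, range 0.0092 to 0.11). CBR3-AS1 overlaps 42.2% of the CBR3 exons on the other strand. Without control library 3, 4 genes of the list fell instead of 7.

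Earlier results of these data had tied falls to the 7-mers GCCTTCA and CCTTCAA in 3' UTRs, so the members were read for both in GENCODE 29 transcripts (GRCh38). Of the 31 tested members, 7 carried either 7-mer, of which 2 fell, 0 rose and 5 did not pass. Of the 24 without, 2 fell, 11 rose and 11 did not pass. Among all 8377 tested genes that could be read, 1710 (20.4%) carried either, of which 32.9% fell, against 15.1% of the 6667 without. Rises were also scarcer there among carriers, with 164 of the 1710, against 1238 of the 6667 without. The median log2 fold change was -0.14 in carrier members and 0.06 in the others, beside -0.18 and 0.02 among all tested genes. In the further pathway list it was 0.22 in the 6 carriers and 0.22 in the 44 others. The 7-mers were picked from these same libraries, so these figures are a description and carry no test.

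The site of ABCC3, a carrier that fell, and those of 4 carriers that did not pass, GCLM, NQO1, SRXN1 and PRDX6, are printed with the 7-mer in capitals, so that a carrier with a called fall can be set beside carriers without one.
ABCC3: ctgcaaatattGCCTTCAcagccaaaatt
GCLM: acctgtaatttCCTTCAAtatgagagaaa
NQO1: aatattttgttGCCTTCAtcttcactgca
SRXN1: acctgctgccaCCTTCAAgagcccagaag
PRDX6: ttatactctctGCCTTCAgcaatcaattc
They lie at chr17:50691834-50691862 (plus strand, ABCC3), chr1:93888941-93888969 (minus, GCLM), chr16:69709464-69709492 (minus, NQO1), chr20:648672-648700 (minus, SRXN1) and chr1:173488031-173488059 (plus, PRDX6). NQO1 held a CCTTCAA as well, and TRIM16L, another carrier that did not pass, held CCTTCAA. Among the members that fell, PRDX2 and UGDH carried neither 7-mer in the transcripts read. Of the 6 carriers among the 50 tested genes of the further list, 2 fell (SLC3A2 and CBR1) and 1 rose (ABCC5), CBR1 and ABCC5 being named after their values were seen.

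**Figure D5:**
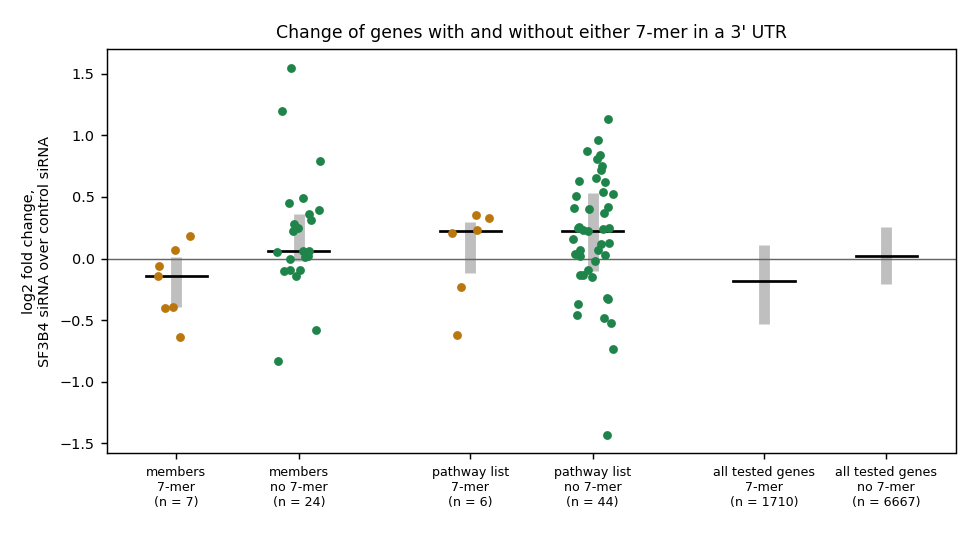
Log2 fold change after SF3B4 siRNA over control siRNA of genes with and without either 7-mer in a 3' UTR, as points for members and for the further pathway list (the n under each column counts genes), with medians as black lines and interquartile ranges as grey bars. The carrier members centre at -0.14 and the others at 0.06, the all-gene columns at -0.18 and 0.02, and both columns of the further list at 0.22.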

How the data were processed

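RNA-seq FPKM values of 6 libraries (3 SF3B4 siRNA, 3 control siRNA), 1 table per library, were deposited by the authors; per the submitters' processing notes, HISAT2 2.0.4, StringTie 1.3.0 and GRCh38 were used, without roles or order. No source used here gives the annotation, strand setting or read layout. Groups and replicate numbers came from the titles. Symbols were matched for all 39 members and for 65 of 66 genes of the further pathway list. Members and lists were chosen with earlier results of these data known.

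The 9685 genes that reached 1 FPKM in 3 or more of the 6 libraries were tested with limma 3.58.1 in R 4.3.3 (intensity trend, robust, two-sided) on log2(FPKM + 0.1), Benjamini-Hochberg adjusted over all of them at 0.05, and checked on simulated data. Such fold changes understate changes of low genes. All members were named, and of the further list those past the threshold whose log2 fold change was 0.58 or more in size. Depth came from FPKM steps of single-exon genes, of which 99.1% to 99.5% of low values lay within 0.02 of a whole fragment; fragments of near-silent members came from a step shared by the 6 libraries (tolerance 0.06) and cover counting error only. Gene positions, exon overlaps and 3' UTRs came from GENCODE 29 (GRCh38), promoter windows from RefSeq (GRCh38.p14). Alternatives changed the pseudocount, filter, scaling, variance model, minimum effect, replicate block and libraries included. Some site sequences are not reported here. Counts without the genes that reached the tested range through 1 group were added after seeing the data.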

Additional observations from a re-analysis of the deposited data

How the results depend on the processing

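In every alternative that tested them, the 15 called members kept their sign, and between 5 and 15 of them kept the call. The 6 fits that each left out one library gave 8 to 11 members higher and 4 lower, 12 to 15 of the further list higher and 4 to 6 lower, and 1094 to 1492 of all genes higher and 1331 to 1604 lower. With the test asking for a change past 1.2-fold, 3 members were higher (PIR, AKR1B10 and HMOX1) and 2 lower (PRDX2 and ABCC3). In that fit, 8 of the further list were higher and 2 lower, and 420 of all genes higher and 693 lower. That test is built to reduce such counts. With SF3B4 siRNA library 1 alone against the controls, where the lone library is assumed to vary like the others, 4 members were higher, 5 of the further list higher and 3 lower, and 335 of all genes higher and 700 lower, with fewer samples. At a mean FPKM of at least 5, where fewer genes are tested, 2 members were lower, 11 of the further list higher and 4 lower, and 1027 of all genes higher and 940 lower. With no filter, 995 of all genes were higher; the cause was not tested. Genes near 0 changed sign without a call. GPX1 turned to -0.0045 with quantile normalization and to -0.00048 with SF3B4 siRNA library 1 alone. Over the fits that left out a library, log2 fold changes spanned -0.11 to 0.29 for KEAP1, -0.09 to 0.12 for RPIA, -0.18 to 0.21 for RPE, -0.08 to 0.05 for GPX1, -0.03 to 0.10 for GPX4, -0.34 to 0.15 for TRIM16L, -0.0049 to 0.15 for EPHX1 and -0.06 to 0.14 for PRDX3. Same-numbered libraries did not deviate together (correlations of -0.08, 0.02 and -0.12), so the numbers were not taken as pairs. With the number as a replicate block, 10 members were higher and 4 lower (15 and 5 of the further list, 1290 and 1537 of all genes), TXNRD1 being the call lost among members. Other scalings moved the median of all genes by at most 0.04 on the log2 scale, and the balance of all calls with it: 1641 higher and 1629 lower rescaled to TPM, 1738 and 1636 with quantile normalization and 1803 and 1579 with median centring, against 1546 and 1752 as deposited.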
